A study of Mus musculus with 11 samples.

Results

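Cluster 2 is a group of noradrenergic neurons of the mouse stellate ganglion. Levels were compared between clusters 1, 2 and 4, and cluster 3 was left out. Of these 3, cluster 2 had the highest level of Fxyd2, a small membrane protein that regulates the sodium pump. Its members were the 335 cells to which the authors' deposited annotation gives the cluster number 2, out of 878 annotated cells (38.2%). Cluster 1 held 388 cells, cluster 4 held 54 and cluster 3 held 101. The cells came from 6 male C57BL/6J mice aged 6 to 8 weeks, with no genetic change or drug treatment named. Retrograde tracers had been injected into all mice, CTB-488 into the forelimb and CTB-555 into brown fat between the shoulder blades (iBAT), and the stellate ganglia were taken 3 days later. Tissue of 2 animals made up each of 3 sets, which were sorted as single cells into 4 plates for Set 1, 4 for Set 2 and 3 for Set 3, and the cDNA of each plate was pooled for 3' sequencing. The 96 well barcodes were the same in all 11 plates. Each set is therefore 1 pool of animals and 1 group of libraries, and these cannot be told apart. Which tracer a cell carried was not used here.

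The stellate ganglion is the sympathetic ganglion that supplies the heart, the forelimb and much of the upper body, brown fat included. Most of its neurons make noradrenaline from tyrosine through tyrosine hydroxylase, aromatic amino acid decarboxylase and dopamine beta-hydroxylase, load it into vesicles against a proton gradient, and recapture it after release through the noradrenaline transporter. A smaller number are cholinergic. Noradrenergic neurons also differ in their peptides, neuropeptide Y being the best known, and in their receptors for peptides and growth factors.

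The clusters were made by the authors from the expression values of these same cells. A difference between clusters in those values is therefore a description of the cluster, and the model below is not a test that the cluster is a class. It describes how evenly a difference repeated over the 3 sets. Levels are mean counts per 10000 counts of a cell, averaged over the cells of a set. A log2 difference is that between clusters after log2(1 + counts per 10000) was averaged over cells, which understates the change of genes with low levels. A gene is said to pass when the adjusted p of that model (limma, with set as a block) was under 0.05. Cluster 4 held 12, 24 and 18 cells in Sets 1, 2 and 3, against 137, 112 and 86 in cluster 2. The model gave the mean of each set and cluster the same weight, so its SE do not show that cluster 4 means rest on fewer cells. The 335 cells had a median of 40121 counts and 6920 detected genes per cell, against 28396 and 6003.5 in cluster 1 and 35488.5 and 6633 in cluster 4. The lowest cell of cluster 2 had 3012 counts and 6 cells had under 10000. Because cluster 2 was the deepest, counts of passing genes are also given for cells thinned to 15000 counts each, which left out 12 cells of cluster 2, 21 of cluster 1 and 1 of cluster 4.

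Fxyd2 was higher in cluster 2 than in clusters 1 and 4 in every set. It stood at 22.9, 22.2 and 18.2 counts per 10000 in Sets 1, 2 and 3 of cluster 2, at 8.52, 7.07 and 6.91 in cluster 1 and at 7.50, 7.56 and 6.22 in cluster 4. The ranges over sets did not overlap, and the log2 difference was 1.50 ± 0.06 (SE) from cluster 1 and 1.49 ± 0.06 from cluster 4. Every cell of clusters 1, 2 and 4 had a count of Fxyd2, so the cells differed in level and not in presence. The quartiles over cells were 14.7 and 27.6 counts per 10000 in cluster 2, and 3.77 and 9.41 in cluster 1.

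Atp6v1b2, a subunit of the proton pump that acidifies vesicles, stood at 15.8, 13.9 and 23.3 in the sets of cluster 2, at 7.71, 6.44 and 10.6 in cluster 1 and at 7.59, 5.89 and 10.2 in cluster 4. The third set was the highest in each cluster, and within each set cluster 2 was highest. The log2 difference was 1.02 ± 0.04 from cluster 1 and 1.08 ± 0.04 from cluster 4. Tm4sf4, a membrane protein with 4 membrane-spanning segments, stood at 11.2, 9.58 and 13.6 in cluster 2, at 4.11, 2.99 and 5.15 in cluster 1 and at 7.27, 4.88 and 7.61 in cluster 4. Its log2 difference was 1.29 ± 0.06 from cluster 1 and 0.87 ± 0.06 from cluster 4. Cyp2j12, a cytochrome P450, stood at 2.19, 1.96 and 2.48 in cluster 2, at 0.383, 0.304 and 0.304 in cluster 1 and at 0.249, 0.287 and 0.130 in cluster 4. It had a count in 97.6% of cluster 2 cells, 42.0% of cluster 1 cells and 38.9% of cluster 4 cells. At 15000 counts per cell these shares were 96.6%, 31.1% and 26.4%. Cyp2j12 has close relatives in the Cyp2j family, and the sources used here do not say how reads shared with them were counted.

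Oprk1, the kappa opioid receptor, was low in level but found almost only in cluster 2 among the 3 neuron clusters compared. It stood at 0.273, 0.281 and 0.184 in cluster 2, at 0.00173, 0.00464 and 0.00867 in cluster 1, and at 0.0279 in Set 1 of cluster 4 with no count in the other two sets. It had a count in 169 of 335 cluster 2 cells (50.4%, 95% Clopper-Pearson interval 45.0 to 55.9), in 5 of 388 cluster 1 cells (1.29%) and in 1 of 54 cluster 4 cells (1.85%). At 15000 counts per cell the cluster 2 share was 25.1%. Intervals cover counting error only.

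Edn3, the peptide endothelin 3, separated cluster 2 from cluster 1 but not from cluster 4. It stood at 1.20, 1.89 and 1.22 in cluster 2, at 0.0678, 0.0959 and 0.0421 in cluster 1 and at 1.09, 1.55 and 2.05 in cluster 4. The log2 difference was 0.92 ± 0.09 from cluster 1 and 0.12 ± 0.09 from cluster 4, the latter not passing. Slc6a2, the noradrenaline transporter, stood at 22.6, 26.6 and 15.5 in cluster 2, at 16.3, 20.1 and 12.8 in cluster 1 and at 1.44, 2.62 and 0.955 in cluster 4. Cluster 2 was higher than cluster 1 in each set, with a log2 difference of 0.38 ± 0.06, although the ranges of the 2 clusters over sets overlapped. This difference did not pass with median-of-ratios scaling of summed counts (0.34) or without the set in the model. These markers were chosen on these cells, so their levels describe the cluster and do not test its label.

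**Figure D1:**
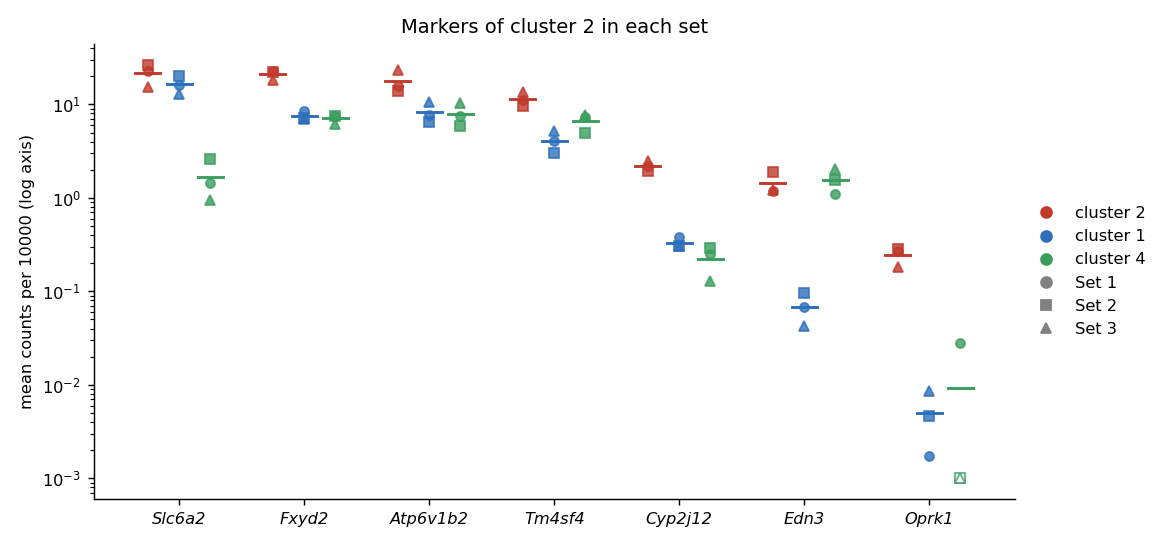
Level of the 7 markers of cluster 2 (counts per 10000, log axis) in each set of clusters 2 (red), 1 (blue) and 4 (green). Each point is the mean over the cells of a set, bars are means over the 3 sets, and an open point at the bottom is a set with no count. Fxyd2 and Cyp2j12 of cluster 2 lie above all sets of the other clusters, and Edn3 of cluster 2 lies among the sets of cluster 4.

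Fxyd2 lies on chromosome 9 at 45399669 to 45410278 on the plus strand (GRCm38, GENCODE M21), beside Fxyd6. Tm4sf4 lies on chromosome 3 at 57425314 to 57441677 (plus), Cyp2j12 on chromosome 4 at 96099318 to 96141152 (minus), Edn3 on chromosome 2 at 174760619 to 174784042 (plus) and Oprk1 on chromosome 1 at 5588466 to 5606131 (plus). The RefSeq promoter table (GRCm38.p6) held a window for 11 of the 18 markers and leading genes looked up. Windows of 300 bases, from 250 before to 50 after the annotated start, are printed 5′ to 3′ for the markers Tm4sf4 (chr3:57425160-57425459, plus), Cyp2j12 (chr4:96141103-96141402, minus) and Edn3 (chr2:174760369-174760668, plus), because these genes share a high level in cluster 2 and differ in how they stand in cluster 4. Capitals mark the motif matches described after them.
Tm4sf4: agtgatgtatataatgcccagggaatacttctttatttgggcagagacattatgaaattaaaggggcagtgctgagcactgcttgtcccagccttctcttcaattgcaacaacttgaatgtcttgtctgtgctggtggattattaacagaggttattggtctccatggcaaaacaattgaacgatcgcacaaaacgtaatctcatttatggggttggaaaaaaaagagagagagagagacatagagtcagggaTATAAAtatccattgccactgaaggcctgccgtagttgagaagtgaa
Cyp2j12: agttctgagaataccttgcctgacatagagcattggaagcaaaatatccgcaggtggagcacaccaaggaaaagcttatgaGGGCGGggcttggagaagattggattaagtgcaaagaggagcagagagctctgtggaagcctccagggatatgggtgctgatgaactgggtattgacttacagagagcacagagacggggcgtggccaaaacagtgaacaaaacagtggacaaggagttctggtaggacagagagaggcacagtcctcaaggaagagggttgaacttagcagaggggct
Edn3: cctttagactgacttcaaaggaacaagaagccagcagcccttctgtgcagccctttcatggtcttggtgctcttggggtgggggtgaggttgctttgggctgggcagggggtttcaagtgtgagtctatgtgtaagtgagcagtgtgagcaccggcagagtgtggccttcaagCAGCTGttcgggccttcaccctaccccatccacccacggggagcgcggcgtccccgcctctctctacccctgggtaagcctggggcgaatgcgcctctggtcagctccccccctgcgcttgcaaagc
A total of 7 motifs were searched on both strands: the TATA box TATAAA, the GC box GGGCGG, the cAMP response element TGACGTCA, the AP-1 site TGANTCA, the E-box CAGCTG, the GATA site AGATAA and a paired TAAT site. Tm4sf4 held a TATAAA, Cyp2j12 a GGGCGG and Edn3 a CAGCTG, and no 2 of the 3 windows shared a motif. The TATAAA began 3 bases after the annotated start of Tm4sf4, and so not upstream of it. The GGGCGG and the CAGCTG began 169 and 77 bases before the starts of their genes. Over all 27025 promoters these motifs occurred in 14.2%, 35.9% and 16.1%. Of the 11 windows, 8 held a GGGCGG, 2 held a TATAAA and 1 held a CAGCTG, and none held the other 4 motifs, which occurred in 0.488% to 11.4% of all promoters. A match is a description of letters and not a binding site.

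Of 10564 genes tested, 936 passed between clusters 2 and 1 (8.86%), with 557 higher (5.27%) and 379 lower (3.59%) in cluster 2. Between clusters 2 and 4, 2111 passed (20.0%), with 1147 higher (10.9%) and 964 lower (9.13%). The comparisons share the cells of cluster 2. In both at once, 263 genes were higher (2.49%) and 121 lower (1.15%) in cluster 2, while 75 lay above cluster 1 and below cluster 4 (0.710%) and 72 below cluster 1 and above cluster 4 (0.682%). At 15000 counts per cell, 250 genes were higher and 245 lower than in cluster 1, and 713 higher and 676 lower than in cluster 4. With median-of-ratios scaling of summed counts 403 genes were higher and 422 lower than in cluster 1, so the share of higher among passing genes went from 59.5% to 48.8%. Leaving out a set left 423 to 561 passing genes against cluster 1. The median log2 difference of all genes was 0.011 from cluster 1 and 0.006 from cluster 4.

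**Figure D2:**
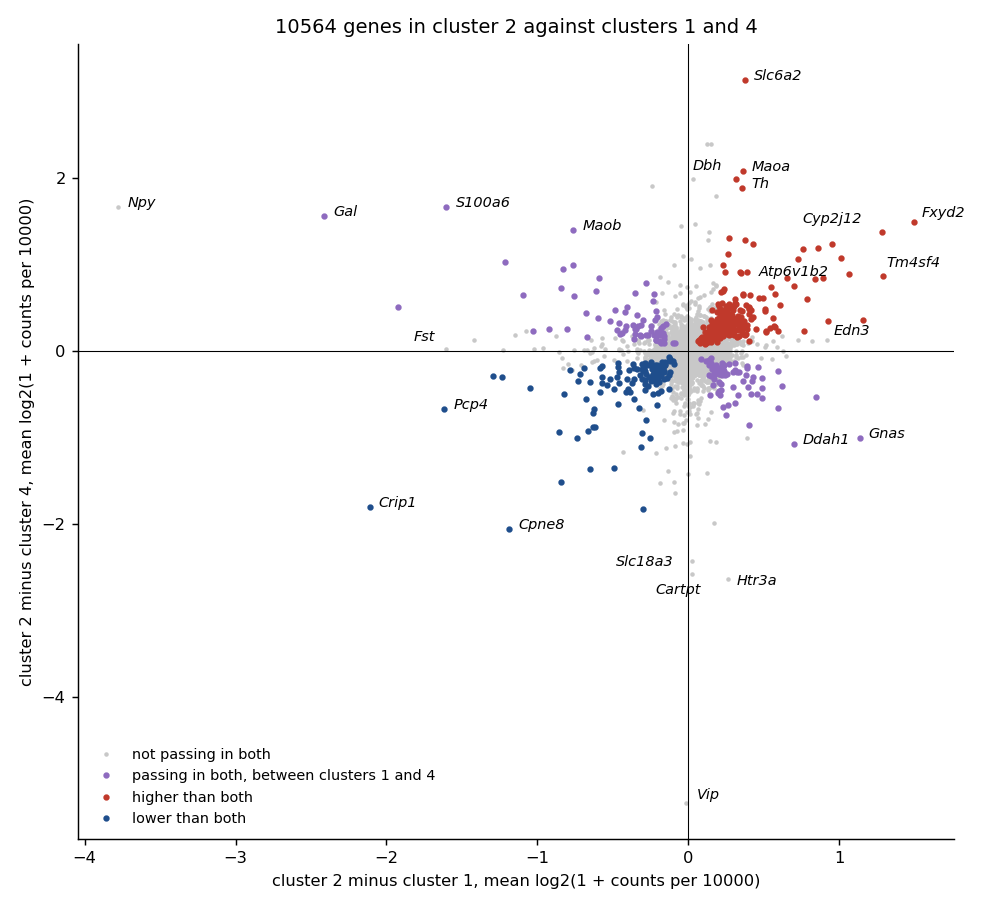
Log2 difference of each of the 10564 genes tested, cluster 2 minus cluster 1 on the x axis and cluster 2 minus cluster 4 on the y axis. Red points are the 263 genes higher than both, blue points the 121 lower than both, purple points those between the 2 clusters, and grey points did not pass in both; Fxyd2 lies far from 0 on both axes, Slc6a2 mainly on the y axis, and Npy mainly on the x axis.

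By the smaller of the 2 differences, the genes furthest above both clusters, apart from markers, are named here in no order of size. They were Ramp1, Nbl1, Slc18a1, Thy1, Bcam, Ntng1, Tesc, Actn1, Fstl5, Eef1e1 and Cckar. Ramp1, which joins the calcitonin receptor-like receptor to form the CGRP receptor, stood at 4.84, 3.75 and 4.18 in cluster 2, at 2.35, 2.20 and 2.01 in cluster 1 and at 1.85, 1.47 and 1.37 in cluster 4. No set of cluster 2 overlapped with the others. Nbl1, a secreted BMP antagonist, stood at 5.79, 6.06 and 8.07 in cluster 2 and at no more than 3.88 in any set of clusters 1 and 4. Its log2 difference was 0.96 ± 0.05 from cluster 1 and 1.23 ± 0.05 from cluster 4. Slc18a1, the vesicular monoamine transporter VMAT1 known from chromaffin cells, stood at 1.06, 1.06 and 1.38 in cluster 2, at 0.0949, 0.0713 and 0.0476 in cluster 1 and at 0.0871, 0.228 and 0.0813 in cluster 4. Its start overlaps that of the marker Atp6v1b2 head to head on chromosome 8 (69037711 to 69089235, minus, and 69088646 to 69113711, plus; 590 shared bases), and the sources used here do not say whether counting used strand. Thy1, a cell surface glycoprotein of neurons, had a mean of 7.21 ± 0.41 over the sets of cluster 2 (SD, n = 3, in counts per 10000, as for all later means), against 3.56 and 4.47 in clusters 1 and 4. Bcam, a laminin-binding adhesion molecule, averaged 2.43 ± 0.30, 0.944 and 0.980 in the same order, and the actin crosslinker Actn1 2.23 ± 0.16, 1.01 and 0.868.

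Counts of list members are to be read beside the shares over all genes tested: 5.27% were higher and 3.59% lower than in cluster 1, and 10.9% and 9.13% than in cluster 4. Without the set in the model these shares were lower, and most list counts were lower as well. Of 10564 genes, 119 were then higher and 163 lower than in cluster 1, and 405 and 426 than in cluster 4. At 15000 counts per cell (equal depth), 250 of 10501 genes were higher and 245 lower than in cluster 1. Against cluster 4 these were 713 and 676. A fall in a list count in either setting is therefore not by itself specific to that list.

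Cluster 2 had the highest mean levels of the noradrenaline pathway genes Th, Dbh and Cyb561 among the 3 clusters. Of 12 genes of noradrenaline synthesis and storage, 4 were higher and 1 lower than in cluster 1, with a median log2 difference of 0.14, and 11 were higher and none lower than in cluster 4, with a median of 1.37. Without the set in the model none of the 12 passed against cluster 1 and 7 were higher than in cluster 4. Th, the rate-limiting enzyme of catecholamine synthesis, stood at 55.1, 52.7 and 81.1 in cluster 2, at 45.7, 39.2 and 62.2 in cluster 1 and at 21.6, 17.5 and 34.7 in cluster 4. Cluster 2 was highest in each set. The difference from cluster 1 was small (0.36 ± 0.05) and did not pass once the 10% of cells richest in glial counts were left out. Dbh, which makes noradrenaline from dopamine, was 0.32 ± 0.05 above cluster 1 and 1.99 ± 0.05 above cluster 4. Cyb561, the vesicle cytochrome that supplies electrons to dopamine beta-hydroxylase, was 0.38 ± 0.05 and 1.28 ± 0.05 above them, and Pcbd1, which recycles the cofactor of tyrosine hydroxylase, 0.32 ± 0.05 and 0.24 ± 0.05. The log2 difference of the vesicular transporter Slc18a2 from cluster 1 was 0.03 ± 0.08, that of the decarboxylase Ddc 0.18 ± 0.07, that of the copper transporter Slc31a1 0.12 ± 0.06 and that of the cofactor enzyme Gch1 -0.05 ± 0.05, none passing. Those 4 genes were 1.99, 1.79, 2.39 and 1.45 above cluster 4.

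Of 7 tested genes of noradrenaline reuptake and breakdown, 5 were higher and 1 lower than in cluster 1 (5.27% and 3.59% of all genes), and 5 higher and 1 lower than in cluster 4. With median-of-ratios scaling 1 was higher and 1 lower than in cluster 1, and without the set in the model none was higher and 1 lower. The 2 monoamine oxidases differed in direction between clusters 2 and 1. Maoa stood at 10.6, 10.9 and 13.0 in cluster 2 and at 8.54, 8.45 and 9.21 in cluster 1 (0.36 ± 0.08), a difference that did not pass without Set 2 or without Set 3. Maob stood at 2.55, 2.72 and 3.33 in cluster 2, at 5.28, 5.13 and 6.24 in cluster 1 and at 0.413, 0.416 and 0.457 in cluster 4, with a log2 difference of -0.76 ± 0.06 from cluster 1. Slc29a4, a low-affinity monoamine transporter, was 0.26 ± 0.05 above cluster 1. The cholinergic genes Chat, Slc18a3 and Slc5a7, for making and loading acetylcholine and taking up choline, averaged 0.00263, 0.0488 and 0.00760 in cluster 2, against 0.507, 5.11 and 2.21 in cluster 4. Colq, the collagen that anchors acetylcholinesterase, stood apart from them: it averaged 0.610 ± 0.193, 0.0468 and 0.585 in clusters 2, 1 and 4. In the annotation Slc18a3 lies within Chat and Colq overlaps Gm49387, each on the same strand.

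**Figure D3:**
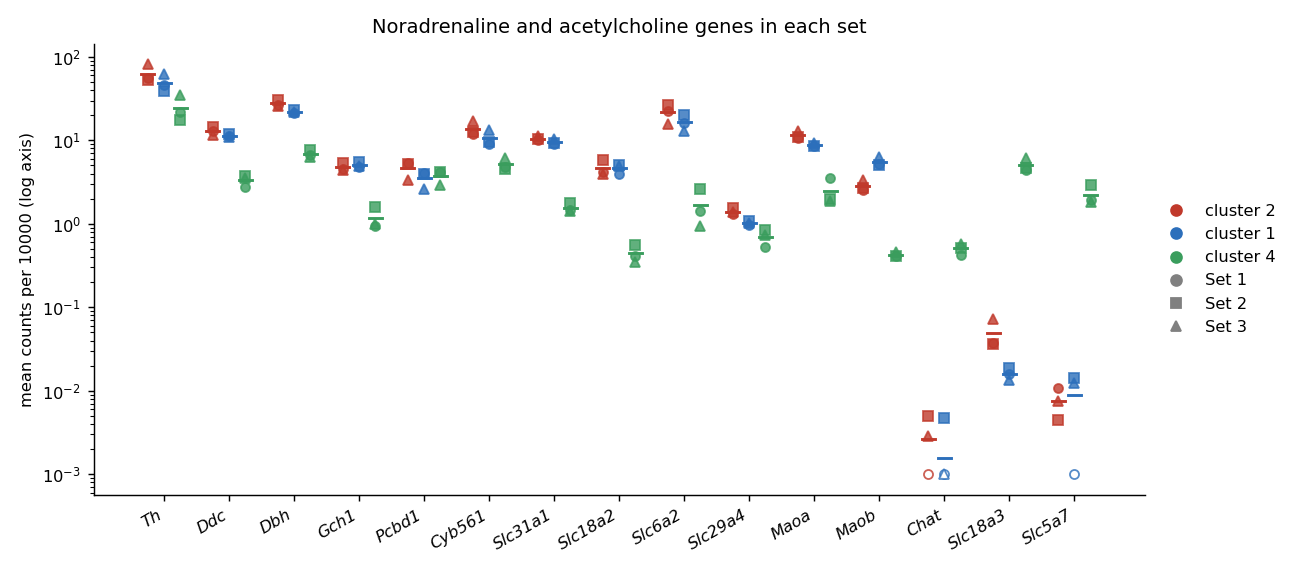
Level (counts per 10000, log axis) of genes of noradrenaline synthesis, storage, reuptake and breakdown and of 3 cholinergic genes in each set of clusters 2 (red), 1 (blue) and 4 (green). Points are sets, bars are means over the 3 sets, and open points at the bottom are sets with no count; clusters 2 and 1 lie close for most noradrenaline genes, and Maob is lower in cluster 2 than in cluster 1.

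Of 13 tested transcription factors of sympathetic neurons, 1 was higher (7.69%, against 5.27% of all genes) and 2 lower (15.4%, against 3.59%) than in cluster 1, and 7 were higher and 1 lower than in cluster 4. Hand2, which helps to specify these neurons, averaged 2.30 ± 0.42 in cluster 2, with log2 differences of 0.07 ± 0.07 and 0.09 ± 0.07 from clusters 1 and 4, neither passing. Hmx1, a homeobox factor that favours the noradrenergic fate, averaged 0.669 ± 0.026, 1.13 and 0.239 in clusters 2, 1 and 4, and passed as lower than cluster 1 and higher than cluster 4. Of 6 tested Hox genes, 2 were lower than in both clusters: Hoxc8 averaged 0.0893, 0.617 and 0.490 in clusters 2, 1 and 4, and Hoxc9 0.0223, 0.433 and 0.166. Hoxc5 passed as higher than in cluster 4, but not at equal depth. Hoxc8 and Hoxc9 lie within Hoxc5 on the same strand in the annotation, and the sources used here do not say how shared reads were counted. At equal depth no transcription factor of the first list was higher than in cluster 1.

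The sodium pump group, from which the cluster takes its label gene, moved in both directions. Of 11 tested members, 5 were higher and 2 lower than in cluster 1 (3 and 2 at equal depth), and 3 higher and 4 lower than in cluster 4. Besides Fxyd2, the beta subunit Atp1b3 passed as higher than both (0.28 ± 0.05 and 0.34 ± 0.05), as did Fxyd6. The related regulator Fxyd7 went the other way in both comparisons. It stood at 6.64, 7.72 and 4.92 in cluster 2, at 8.37, 9.65 and 7.07 in cluster 1 and at 15.5, 16.3 and 12.5 in cluster 4. Fxyd5 averaged 1.15 ± 0.26, 3.80 and 0.843 in clusters 2, 1 and 4, and so lay below cluster 1 only. Among 17 tested subunits of the vesicular proton pump, 3 were higher and 1 lower than in cluster 1 and 5 higher and 1 lower than in cluster 4. The log2 differences of Atp6v1f were 0.29 and 0.21, and Atp6v1e1 was lower than both (-0.38 and -0.37).

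Of 17 tested members of the TM4SF and tetraspanin families, 5 were higher and 2 lower than in cluster 1 (29.4% and 11.8%, against 5.27% and 3.59% of all genes; 3 and 2 at equal depth). Against cluster 4, 4 were higher and 6 lower (23.5% and 35.3%, against 10.9% and 9.13%). Tm4sf1, a close relative of Tm4sf4, averaged 1.76 ± 0.10, 1.04 and 3.90 in clusters 2, 1 and 4. The tetraspanins Cd9 and Cd63 averaged 28.1 ± 1.2 and 0.542 ± 0.075 in cluster 2 and 38.6 and 4.20 in cluster 4. Of 10 tested cytochrome P450 and eicosanoid genes, 2 passed as higher than both clusters, Cyp2j12 and the cyclooxygenase Ptgs1, which averaged 0.488 ± 0.046, 0.134 and 0.203 in clusters 2, 1 and 4.

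The peptides Npy and Gal were lower in cluster 2 than in cluster 1. Of 14 tested neuropeptides, 1 was higher and 3 lower than in cluster 1, and 2 higher and 6 lower than in cluster 4. Npy, neuropeptide Y, stood at 29.2, 14.1 and 33.9 in cluster 2, at 199, 181 and 170 in cluster 1 and at 4.29, 3.91 and 2.22 in cluster 4. Its log2 difference was -3.78 ± 0.40 from cluster 1 and 1.66 ± 0.40 from cluster 4, the latter not passing. Gal, galanin, stood at 11.7, 6.68 and 11.9 in cluster 2 and at 60.9, 44.2 and 56.2 in cluster 1, with a log2 difference of -2.41 ± 0.27. Set 2 was the lowest of cluster 2 for both peptides, and neither passed against cluster 1 without Set 1. Of 12 tested granins and processing enzymes, 3 were higher and 4 lower than in cluster 1, and 1 and 4 at equal depth. Chga, chromogranin A of dense-core vesicles, stood at 0.972, 1.01 and 1.13 in cluster 2, at 4.58, 3.67 and 4.66 in cluster 1 and at 1.74, 1.57 and 1.55 in cluster 4. Pam, which amidates peptides such as neuropeptide Y, averaged 2.19 ± 0.48, 3.90 and 4.11 in clusters 2, 1 and 4, and the prohormone convertase Pcsk2 1.47 ± 0.17, 2.82 and 0.457.

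Of 12 tested receptors for peptides, 4 were higher and 1 lower than in cluster 1, 8 higher and 2 lower than in cluster 4, and 4 higher than both: Oprk1, Ramp1, Cckar and Agtr1a. Cckar, the receptor for cholecystokinin, stood at 0.600, 0.643 and 0.894 in cluster 2, at 0.0907, 0.0932 and 0.165 in cluster 1 and at 0.0761, 0.0238 and 0.0162 in cluster 4. The angiotensin receptor Agtr1a averaged 1.16 ± 0.10, 0.885 and 0.0285, and its difference from cluster 1 (0.23 ± 0.05) did not pass at equal depth. The 1 lower than in cluster 1 was the orexin receptor Hcrtr1, which did not pass at equal depth. Outside this list, the receptors Sctr for secretin (0.0710 against 1.76) and Rxfp1 for relaxin (0.0770 against 1.30) were lower than in cluster 1. Rxfp1 did not pass with median-of-ratios scaling.

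Among receptors for the ganglion's own transmitters, the autoreceptor Adra2a stood at 0.979, 1.07 and 0.626 in cluster 2, at 0.245, 0.263 and 0.198 in cluster 1 and at 0.689, 0.503 and 0.496 in cluster 4. Its log2 difference from cluster 1 was 0.58 ± 0.06. The muscarinic receptor Chrm2 was lower than in both clusters, at 0.545 ± 0.081 against 1.08 and 1.14. The nicotinic subunits Chrna3 and Chrnb4, which carry fast ganglionic transmission, averaged 5.88 ± 0.66 and 3.13 ± 0.74, with log2 differences of 0.20 and 0.10 from cluster 1. The first of these did not pass at equal depth and the second did not pass. Of 21 tested receptors for GABA, glutamate, serotonin and purines together with dopamine receptors, 3 were higher and 5 lower than in cluster 1, and 1 higher and 7 lower than in cluster 4. At equal depth none of these was higher than in cluster 1. The AMPA receptor subunit Gria1 stood at 0.142, 0.225 and 0.162 in cluster 2, at 1.02, 1.30 and 1.14 in cluster 1 and at 0.722, 0.956 and 0.656 in cluster 4. The dopamine receptor Drd2 averaged 0.0734 in cluster 2 and 0.720 in cluster 1.

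Of 22 tested receptors for neurotrophins, GDNF family ligands and cytokines, 5 were higher and 2 lower than in cluster 1, and 5 higher and 5 lower than in cluster 4. The GDNF family receptors split by member. Gfra2, which binds neurturin, stood at 0.895, 1.15 and 0.933 in cluster 2 and lay between cluster 1 (0.0605, 0.0758 and 0.0440) and cluster 4 (1.86, 1.82 and 2.03). Gfra3, which binds artemin, averaged 0.00981, 0.464 and 0.0111 in clusters 2, 1 and 4. Ret, the signalling subunit for both, averaged 1.30 ± 0.64, 0.915 and 2.87, and its difference from cluster 1 did not pass at equal depth. Ngfr, the neurotrophin receptor p75, was 0.39 ± 0.06 above cluster 1 and 0.91 ± 0.06 above cluster 4.

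Ion channel genes moved in both directions. Of 30 tested potassium channel genes, 8 were higher and 2 lower than in cluster 1 (26.7% and 6.67%, against 5.27% and 3.59% of all genes). At equal depth 2 were higher and 1 lower. Against cluster 4, 11 were higher and 9 lower (36.7% and 30.0%, against 10.9% and 9.13%). Kcnmb4, a subunit of the large-conductance calcium-activated channel, averaged 0.363 ± 0.048, 1.48 and 0.120 in clusters 2, 1 and 4. Kcnt1, a sodium-activated potassium channel, averaged 0.476 ± 0.049 against 0.162 and 0.156, and passed as higher than both clusters also at equal depth. Of 29 tested sodium, calcium, HCN and TRP channel genes, 3 were higher and 2 lower than in cluster 1, and 1 and 1 at equal depth. Against cluster 4, 6 were higher and 5 lower. Scn3b, a sodium channel beta subunit, averaged 0.554 ± 0.079 against 1.61 in cluster 1, and Trpm2, a calcium-permeable channel gated by ADP-ribose, 0.718 ± 0.073 against 0.306 and 0.175 in clusters 1 and 4.

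Genes of transmitter release gave more members higher than lower. Of 37 tested, 12 were higher and 3 lower than in cluster 1, with a median log2 difference of 0.09, and 15 higher and 4 lower than in cluster 4, with a median of 0.12. At equal depth 10 were higher and 3 lower than in cluster 1, and without the set in the model 2 and 1. Over all genes the counts were 250 and 245 of 10501 at equal depth, and 119 and 163 of 10564 without the set. Complexin 1 (Cplx1), which clamps and supports vesicle fusion, stood at 4.10, 4.61 and 4.49 in cluster 2 and at 2.08, 2.10 and 2.70 in cluster 1. Rph3a, a Rab3 effector on vesicles, averaged 0.912 ± 0.099, 0.336 and 0.218 in clusters 2, 1 and 4, and the fusion protein Snap25 26.9 ± 7.4, 20.4 and 20.9. Syn2, which tethers vesicles, went the other way and averaged 9.48 ± 0.65 in cluster 2 against 16.7 in cluster 1. Cplx2 and Syt1, the calcium sensor of release, were 2.39 ± 0.05 and 1.30 ± 0.04 above cluster 4.

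Calcium-binding proteins were lower than in cluster 1 for 7 of 20 tested and higher for 3 (6 and 1 of 19 at equal depth). Pcp4, which modulates calmodulin, stood at 0.0750, 0.129 and 0.219 in cluster 2, at 3.27, 3.70 and 2.53 in cluster 1 and at 0.571, 2.01 and 0.829 in cluster 4. Ncald, a neuronal calcium sensor, averaged 4.22 ± 0.44, 10.8 and 2.26, and S100a1 1.41 ± 0.39, 3.14 and 0.342. Of 29 tested cytoskeletal genes 1 was higher and 6 lower than in cluster 1 (1 and 3 at equal depth). That 1 was Gap43, a growth cone protein, at 26.9 ± 2.4 against 20.2 and 19.6 in clusters 1 and 4, which did not pass against cluster 1 with median-of-ratios scaling. The neurofilament Nefm averaged 1.54 ± 0.08 against 3.00 and 3.74; Nefm overlaps Nefl in the annotation, and Nefl averaged 4.09 ± 0.87, 3.60 and 9.35.

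Of 28 tested guidance genes 3 were higher and 3 lower than in cluster 1 (10.7% each, against 5.27% and 3.59% of all genes), and 2 and 2 of 27 at equal depth. Of 42 adhesion genes 5 were higher and 9 lower (11.9% and 21.4%), and 4 and 6 at equal depth. The semaphorin receptors split: Nrp2 averaged 0.470 ± 0.068 in cluster 2 against 0.101 and 0.184 in clusters 1 and 4, while Nrp1 averaged 0.256 ± 0.027 against 0.824 and 0.786. Both passed in both comparisons, also at equal depth. Ntng1, a membrane-anchored netrin relative, stood at 2.00, 2.35 and 1.58 in cluster 2, at 0.901, 0.777 and 0.595 in cluster 1 and at 0.214, 0.365 and 0.196 in cluster 4. The ephrin receptor Epha5 averaged 2.24 ± 0.35 against 7.36 in cluster 1. The protocadherin Pcdh7 averaged 0.0498 ± 0.0297 against 1.29 and 0.456, and the teneurin Tenm2 0.284 ± 0.030 against 1.56 in cluster 1.

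Of 49 tested G protein, RGS and cAMP genes, 8 were higher and 6 lower than in cluster 1, and 16 higher and 13 lower than in cluster 4. Gnas, the stimulatory G protein alpha subunit, was ordered across the clusters: it stood at 0.974, 1.05 and 1.06 in cluster 1, at 3.48, 4.47 and 2.66 in cluster 2 and at 7.48, 8.02 and 8.37 in cluster 4, with no overlap between neighbours. Rgs10, a brake on G protein signalling, averaged 2.29 ± 0.31 against 0.734 and 1.56. Ddah1, which breaks down inhibitors of nitric oxide synthase, took the same order as Gnas, at 1.53 in cluster 1, 3.04 ± 0.75 in cluster 2 and 6.85 in cluster 4. Arg1, arginase, averaged 0.342 ± 0.069 against 2.15 in cluster 1. Of 15 tested activin and BMP genes 2 were higher and 6 lower than in cluster 1, and 2 higher and 6 lower than in cluster 4. Nbl1 and Fstl5 were higher than both, and Fstl1 and Id2 were the 2 genes lower than both. The secreted Fstl1 averaged 0.0486 ± 0.0180 against 0.419 and 0.647.

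Subunits of the respiratory chain and of ATP synthase, which make ATP in mitochondria, numbered 65 tested. Of these 24 were higher and 1 lower than in cluster 1 (36.9% and 1.54%, against 5.27% and 3.59% of all genes; median log2 difference 0.13). Against cluster 4, 1 was higher and 31 lower (1.54% and 47.7%, against 10.9% and 9.13%; median -0.14). At equal depth 20 were higher and 1 lower than in cluster 1, and 1 higher and 20 lower than in cluster 4. Without the set in the model none passed in either comparison. Atp5e stood at 12.9, 11.0 and 10.5 in cluster 2 and at 9.31, 7.93 and 7.27 in cluster 1. Ndufa1 averaged 6.83, 8.81 ± 1.02 and 10.8 in clusters 1, 2 and 4. Ndufv3 was the exception that was higher than both (0.36 ± 0.05 and 0.46 ± 0.05), and Ndufs4 the member lower than in cluster 1. Of 18 tested glycolysis genes 5 were higher and 2 lower than in cluster 1, and 2 and 1 at equal depth. Of 23 cholesterol synthesis genes none was higher than in either cluster, and 4 and 6 were lower than in clusters 1 and 4. Acat2 averaged 3.71 ± 1.14 against 5.38 and 5.51, and Fdft1 6.12 ± 1.12 against 7.68 and 8.15.

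Immediate early genes, which cells induce within minutes of stimulation, were at low levels in cluster 2. Of 15 tested, none was higher than in either cluster, 2 were lower than in cluster 1 and 11 lower than in cluster 4. The 2 differences from cluster 1 did not pass at equal depth, while 12 passed as lower than in cluster 4. Fos averaged 0.351 ± 0.138, 0.436 and 0.923 in clusters 2, 1 and 4. Of 18 tested axon injury genes 1 was higher and 4 lower than in cluster 1 (5.56% and 22.2%, against 5.27% and 3.59% of all genes). The 4 were Npy, Gal, Arg1 and Ecel1, and the injury factor Atf3 averaged 0.0216 in cluster 2 and 0.0251 in cluster 1.

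The genes furthest below both clusters included several with no list of their own. Crip1, a LIM-domain protein, stood at 7.39, 5.47 and 9.07 in cluster 2, at 26.5, 26.5 and 22.4 in cluster 1 and at 19.4, 25.2 and 23.4 in cluster 4. Cpne8, a calcium-dependent phospholipid-binding protein, stood at 0.0594, 0.0707 and 0.0884 in cluster 2, at 1.81, 1.63 and 1.48 in cluster 1 and at 5.04, 3.56 and 3.99 in cluster 4. Elmo1, an activator of Rac signalling, averaged 0.0219 ± 0.0098 against 0.787 and 1.97. Pdlim7, Prune2 and Lxn averaged 1.53 ± 0.23, 2.89 ± 0.43 and 6.44 ± 0.44 in cluster 2, each under the levels of 3.52, 5.92 and 11.7 in cluster 1. B2m, the light chain of class I histocompatibility molecules, averaged 8.22 ± 3.52 against 13.0 and 16.0.

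Markers of other cell types were checked by their summed level. The glial and Schwann cell list (18 of 20 genes in the table) summed to 14.5 to 24.3 counts per 10000 over the sets of cluster 2, 12.3 to 15.2 in cluster 1 and 22.0 to 44.5 in cluster 4; 8 of its genes were under 0.05 in cluster 2, and S100b averaged 0.185 ± 0.145. The endothelial list summed to 1.05 to 1.44, with no count of Cdh5, Kdr or Tek and 11 of 12 genes under 0.05, Egfl7 being the other one. The blood cell list summed to 0.0137 to 0.0607, with all 6 genes in the table under 0.05. The fibroblast and mural list (8 of 12 genes in the table) summed to 0.257 to 0.360 in cluster 2, 0.731 to 1.41 in cluster 1 and 0.0922 to 0.194 in cluster 4. The cholinergic list summed to 0.184 to 0.354 in cluster 2 and 58.2 to 64.6 in cluster 4. The sensory neuron list, which holds genes that sympathetic neurons also express, had 6 of 14 genes in the table. It summed to 11.4 to 20.0 in cluster 2, 10.8 to 20.6 in cluster 1 and 6.25 to 9.79 in cluster 4. Trpv1 and Runx1 had no count in cluster 2. The chromaffin list, which holds Slc18a1 and Chga, had 5 of 8 genes in the table, with Pnmt, Cox8b and Cyp11b1 absent. It summed to 4.38 to 4.51 in cluster 2, 7.18 to 8.09 in cluster 1 and 15.8 to 30.9 in cluster 4. Without the 10% of cells richest in glial counts, 513 genes were higher and 346 lower than in cluster 1.

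Cells of cluster 2 also differed among themselves. Over the 3374 genes with at least 0.5 counts per 10000 in cluster 2, the 15 with the largest variance beyond counting noise included Apoe, Npy, Crip1, Arl5c, S100a6, Gal, Fabp7, B230312C02Rik, Tspan8, 4933434E20Rik, Ifi27l2a, Rn18s-rs5, mt-Rnr2 and Atpaf2. All 15 were among the first 100 in each set, and 14 stayed among the first 15 at equal depth and 14 without the cells richest in glial counts. Npy ranged widely: 5% of cells lay under 1.12, the median was 11.9 and 5% lay above 92.6, with a highest cell at 357 counts per 10000. The median of cluster 1 cells was 190. Crip1 had a median of 3.87 and Gal of 6.78, with 5% of cells above 23.5 and 29.4. Apoe and Fabp7, which satellite glia make, had medians of 0.301 and 0, and 10.1% and 9.85% of cells above 3 times the mean. Rn18s-rs5 and mt-Rnr2 are ribosomal RNA sequences.

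**Figure D4:**
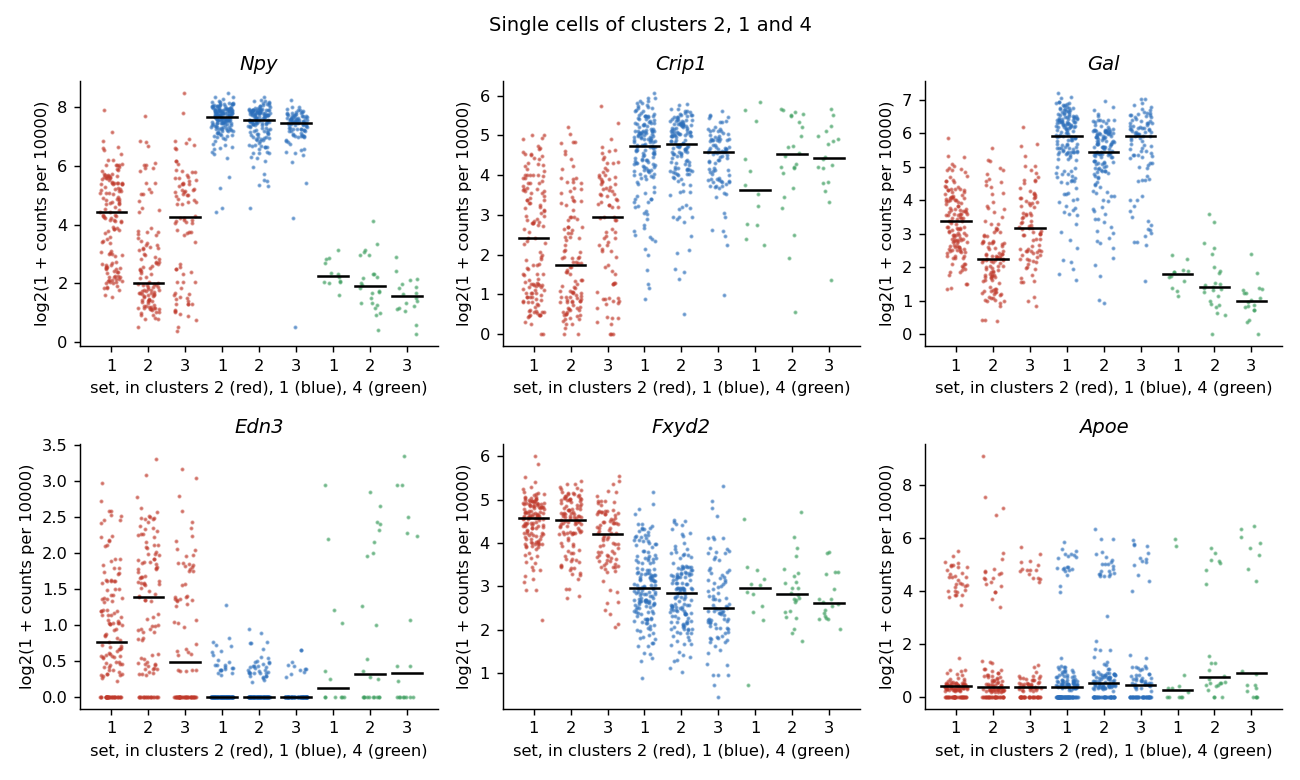
Single cells of clusters 2 (red), 1 (blue) and 4 (green) by set, as log2(1 + counts per 10000) of 6 genes. Each point is a cell and each bar the median of a set; Npy spreads over a wide range in each set of cluster 2, and Edn3 spans from no count upward in clusters 2 and 4 while most cluster 1 cells have none.

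The first principal component of the 500 most variable genes held 7.69% of the variance. Its ends included Apoe, Npy, Crip1 and Gal on one side and Edn3, Eef1e1, Gnas, Ntng1 and Ret on the other, and it followed depth (Spearman's rho of -0.68 with log counts over 335 cells). Pairs of genes were therefore compared at 15000 counts per cell, within plates, in 136, 106 and 81 cells of Sets 1, 2 and 3. These are correlations over cells that share a library and are given as descriptions. Npy went with Crip1 (rho 0.51, 0.47 and 0.47 in Sets 1, 2 and 3) and Scg2 (0.34, 0.38 and 0.36), and against Ddah1 (-0.49, -0.42 and -0.33), Edn3 (-0.33, -0.42 and -0.41) and Fxyd2 (-0.37, -0.25 and -0.31). Edn3 went with Ret (0.25, 0.33 and 0.40) and Fxyd2 (0.24, 0.23 and 0.33). Within cluster 2, cells with more Npy thus had less of the label gene Fxyd2, in the same direction as the difference between clusters 1 and 2. The clusters were made from these same values, so this shared direction is not independent of how cells were assigned. How far the assignment shapes it was not tested. Not all genes that differed between clusters 1 and 2 moved together. Npy was negative with Slc6a2 (-0.38, -0.24 and -0.24), but its rho changed sign between sets with Tm4sf4 (0.33, -0.09 and 0.19) and Gal (0.14, 0.26 and -0.17). The marker Tm4sf4 went with Atp6v1b2 (0.44, 0.52 and 0.14) and against Slc6a2 (-0.18, -0.34 and -0.14). The glial genes formed a separate group: Apoe went with Fabp7 (0.77, 0.61 and 0.58) and Fabp7 with Sparc (0.89, 0.68 and 0.92).

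**Figure D5:**
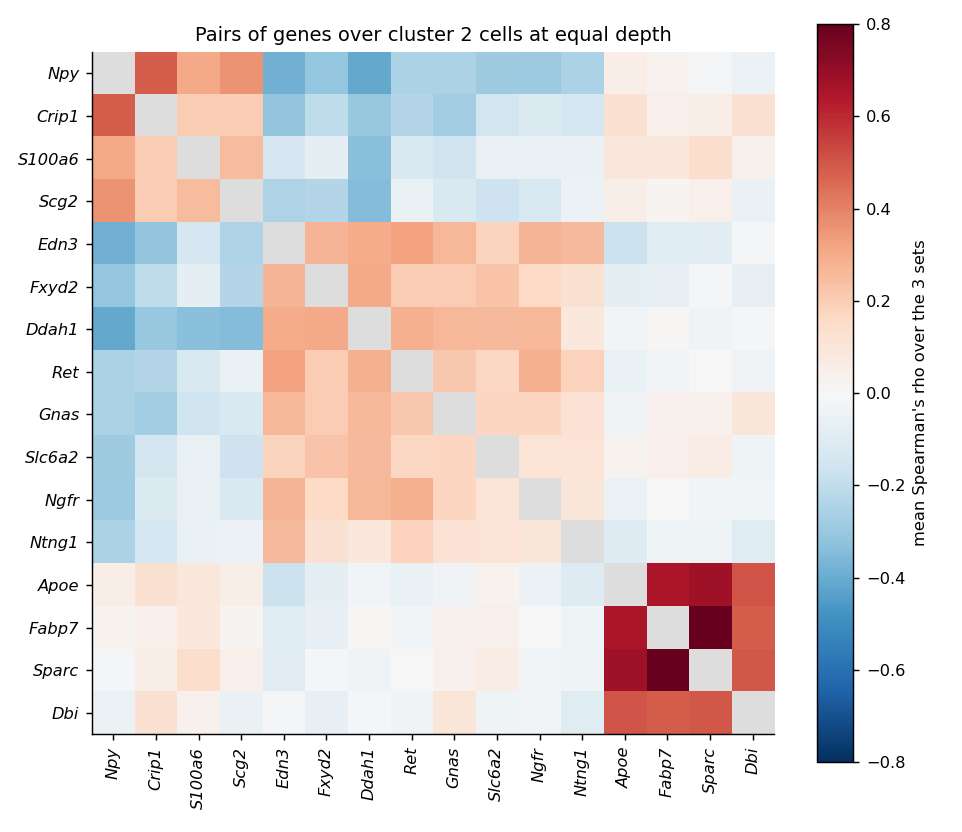
Mean Spearman's rho over the 3 sets between pairs of genes in cluster 2 cells thinned to 15000 counts, red for positive and blue for negative values; the diagonal is grey. The genes shown and their order were chosen by hand, so their places are not a result. Npy, Crip1, S100a6 and Scg2 are positive with each other. Edn3, Fxyd2, Ddah1 and Ret are negative with Npy, and Apoe, Fabp7 and Sparc are positive with each other.

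Cluster 2 made up 41.1%, 34.4% and 39.3% of the cells of Sets 1, 2 and 3 (38.3% ± 3.50, SD, n = 3 sets). Over the 11 plates the share ran from 28.8% to 51.8%, and plates 1 and 2, both of Set 1, gave the lowest and the highest. With 23 of 80 and 44 of 85 cells, their 95% Clopper-Pearson intervals were 19.2 to 40.0% and 40.7 to 62.7%. Shares depend on the sort and on how many cells were kept, which were not analysed here.

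Within cluster 2, levels differed between the sets for 3260 of 10360 genes (31.5%; limma F test over 11 plates, adjusted p under 0.05), and for 1868 at equal depth. The plates of a set share their mice, so this p measures the spread between plates. The smallest p values belonged to Ppia, Gm6063, mt-Nd1, mt-Nd4, Rps7, Dynll1, mt-Nd2, Stmn4, Ppib and Pkm. Ppia stood at 7.34, 0.839 and 1.44 in the sets of cluster 2 and at 7.23, 1.16 and 1.28 in cluster 1, so both clusters showed the same order. The mitochondrial gene mt-Nd1 stood at 33.9, 49.4 and 22.6 in cluster 2 and at 35.0, 55.2 and 22.2 in cluster 1. Of the 7 markers, 6 differed between the sets; with Oprk1 the adjusted p of the limma F test was 0.203. Over 11 plates, each of the 7 markers was higher in cluster 2 than in cluster 1 on every plate, and Npy and Gal were lower on every plate. The clusters and the markers come from these same cells, so these directions describe the clusters and do not test them.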

How the data were processed

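Single cells of pooled stellate ganglia were sequenced from 3' ends on 11 plates. Per the submitters' processing notes, the tools named are STAR 2.5.3a, SAMtools 1.4.1, featureCounts 1.5.3 and Seurat (without a version), and the build is GRCm38. The deposited values of the table are the natural log of 1 plus counts per 10000 in each cell. Whole counts within 0.001 were recovered from 100% of non-zero values, and their sums were used only in alternatives (voom weights and median-of-ratios scaling, in limma). The authors' deposited cluster numbers are labels with no unit. How clusters were made, whether molecular identifiers were used and whether counting used strand are not given in the sources used here. Per-sample columns left unused numbered 0. Cluster 3, which earlier work on these files found to mix 2 depth populations, was left out.

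For every set and cluster, log2(1 + counts per 10000) was averaged over cells, and these 9 values a gene were fitted with limma 3.58.1 in R 4.3.3, with cluster and set as terms, trend and robust options, two-sided tests and Benjamini-Hochberg adjustment over all genes with a mean of at least 0.05 counts per 10000. Genes named are the markers, up to 4 passing members of each list with the largest differences, the 10 smallest p in each direction, the 15 furthest above or below both clusters, the 15 most variable genes, 8 genes at each end of 2 components and the 10 smallest p between sets; values of other list members are also given. The markers, lists and rule were chosen with earlier results of these data known. Positions come from GENCODE M21 and promoters from RefSeq. Of 231 named genes found once in GENCODE M21, 45 overlapped another coding gene. No doublet caller was run. Some genes of the lists are counted but not reported by name here. The model was also run on simulated data, in which cluster differences did not vary between sets beyond noise of the cells. That run therefore does not bear on how well the passing genes hold in these data. Totals were 13617490 counts in cluster 2, 11359733 in cluster 1 and 2023367 in cluster 4. Other computation used Python 3.11.15 (scipy 1.17.1, pandas 2.3.3, numpy 2.4.6; figures with matplotlib 3.10.9).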

Additional observations from a re-analysis of the deposited data

Results flagged for a closer look

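A total of 20 groups of 4 plates were screened for a plate far from the others (the share of cluster 2 cells and the levels of the 7 markers, Npy and Gal, in Sets 1 and 2); about 1 in 20 such groups is picked out by chance. The level of Cyp2j12 in cluster 2 was picked out in Set 1, where 1 plate stood at 2.45 counts per 10000 and the other 3 lay between 2.09 and 2.13.

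The difference between clusters 2 and 1 on the same plate was compared between the 3 sets for the same 9 genes with an exact permutation test over the 11550 ways to assign 11 plates to sets of 4, 4 and 3. For Npy it was -3.32 in Set 1, -4.69 in Set 2 and -3.32 in Set 3 on the log2 scale, lower in cluster 2 on 11 of 11 plates (exact p = 0.00623, Benjamini-Hochberg adjusted exact p = 0.0343 over 9 genes). For Edn3 it was 0.82, 1.15 and 0.80, higher on 11 of 11 plates (exact p = 0.00762, adjusted exact p = 0.0343). Set 2 thus had the largest separation for both genes. For the other 7 genes the adjusted exact p was 0.0701 or more, the lowest being Cyp2j12. Plates of a set share their mice, so this measures the spread between plates.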

How the results depend on the processing

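No named difference that passed changed direction in any setting. Of 335 such differences, 305 still passed with median-of-ratios scaling, 317 with voom weights on summed counts, 302 at 15000 counts per cell, 216 without the set in the model, 293 with no filter on low values, 321 without the cells richest in glial counts, and 297, 287 and 299 without Sets 1, 2 and 3; with a minimum of 0.5 counts per 10000, 275 passed and 60 were not tested. Fxyd2, Atp6v1b2, Tm4sf4 and Cyp2j12 passed in every setting that tested them. The counts moved more. Against cluster 1 (936 passing genes), 2466 passed with voom weights, 495 at equal depth and 282 without the set in the model, and 423 to 561 without each set. Against cluster 4 (2111), 1389 passed at equal depth, 831 without the set in the model and 1201 with the stricter minimum, and 1326 to 1462 without each set. Genes higher than both clusters (263) numbered 155 with median-of-ratios scaling, 422 with voom weights, 125 at equal depth, 66 without the set in the model, 165 with no filter, and 97 to 158 without each set; 120 of the 125 at equal depth were among the 263. Genes lower than both (121) numbered 207, 361, 71, 35 and 68 in the same order, and 60 to 71 without each set. Between sets within cluster 2 (3260), 1868 passed at equal depth and 1888 with the stricter minimum, and 2576 to 3613 without each plate. The cause of these shifts was not tested, beyond the fewer sets or genes that some settings hold. Plates were not paired between sets, because the plate numbers within a set only name plates in accession order. The cluster comparisons already hold the set as a block, and the counts without it are those given above. Depth limits low genes such as Oprk1, of which many cells have no count.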

Other observations

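Members of the receptor list not described above include the serotonin receptor subunits Htr3a and Htr3b, which form an ion channel and which cluster 2 held at 2.47 ± 0.76 and 0.497 ± 0.145 counts per 10000 (SD, n = 3 sets). Cluster 4 held them at 20.1 and 2.20. The log2 difference of Htr3a from cluster 1 was 0.26 ± 0.22 and did not pass. Dmkn, dermokine, a secreted protein known from skin, had means of 2.44 ± 0.36, 0.593 and 1.91 in clusters 2, 1 and 4, so that clusters 2 and 4 lay close to each other and above cluster 1, as with Edn3 and Colq. Arl5c, a small GTPase, averaged 2.17 ± 0.85, 0.770 and 2.79 in the same order, and 13.1% of cluster 2 cells lay above 3 times its mean.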
